A study of Mus musculus with 6 samples.

Results

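Choroid plexus epithelial cells are described here as they appear in single-cell RNA-seq of the meninges and brain surface of adult C57BL6 mice. A barcode was taken as such a cell when at least 3 of the 6 marker genes *Folr1*, *Clic6*, *Kl*, *Prlr*, *Kcnj13* and *Otx2* had at least 1 UMI (unique molecular identifier, a tag that counts captured mRNA molecules) and neither *Ptprc* (the immune cell marker CD45) nor *Pecam1* (the endothelial marker CD31) had any. Kept barcodes had at least 500 detected genes and at most 10% of their UMIs on mitochondrially encoded (mt-) genes. In the 4 cortical surface-associated (CSA) libraries, 119 of 5339 kept cells met the rule, out of 8804 kept cells in all 6 libraries. The marker UMIs that chose these cells come from the same libraries as every value below, so levels of the rule genes are descriptions and carry no test.

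The study made 4 CSA libraries, from tissue freed enzymatically from the top of the cortex with its leptomeninges, and 2 bone-associated (BA) libraries, from dura and other tissue attached to the skull, with the 10x Genomics Chromium platform. No genotype other than C57BL6, no transgene and no treatment is given for any of these groups, and animals were not perfused, so blood cells were present. Each library pooled tissue of several mice and viable cells were sorted by FACS. The paper names collagenase D and dispase II for dissociation, whereas the sample labels describe papain and ventricular tissue for all 6 libraries. The library is therefore the replicate, and the spread between mice was not measured. According to the methods every library held as many males as females. Cells of the 5 classes used here had no UMI of the Y-linked gene *Ddx3y* in CSA libraries 1 and 2 and both BA libraries, however, while 71 of 434 in CSA library 3 and 161 of 948 in CSA library 4 did.

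The choroid plexus is a vascular fold in the brain ventricles that is covered by a single layer of ciliated epithelial cells. These cells secrete cerebrospinal fluid by moving ions and water from blood to ventricle, seal the blood-cerebrospinal fluid barrier with tight junctions, and release proteins into the fluid, foremost transthyretin (*Ttr*), a carrier of thyroid hormone. Of the rule genes, *Folr1* encodes the folate receptor alpha, *Kl* encodes Klotho, *Prlr* encodes the prolactin receptor, *Kcnj13* encodes an inwardly rectifying potassium channel, *Clic6* encodes a member of the chloride intracellular channel family, and *Otx2* encodes a homeodomain transcription factor required for the choroid plexus.

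The members were spread unevenly. CSA library 1 held 2 of 743 kept cells, which is 0.269% (95% exact binomial interval 0.0326 to 0.969). CSA library 2 held 6 of 1252 cells, or 0.479% (0.176 to 1.04), CSA library 3 held 30 of 1103, or 2.72% (1.84 to 3.86), and CSA library 4 held 81 of 2241, or 3.61% (2.88 to 4.47). The same rule found 13 of 963 cells in BA library 1, which is 1.35% (0.721 to 2.30), and 3 of 2502 in BA library 2, which is 0.120% (0.0247 to 0.350). CSA libraries 3 and 4 thus held 111 of the 119 CSA members, and BA library 1 lay above CSA libraries 1 and 2. A further 5 barcodes of BA library 1 and 9 of BA library 2 carried the markers but exceeded the limit on mt- UMIs, as did 16 in the CSA libraries. The share averaged 1.77% ± 1.66 (SD, n = 4) in CSA libraries and 0.735% in the 2 BA libraries. The difference of 1.04 percentage points did not pass the test (two-sided exact permutation test over libraries, p = 0.4, where 4 against 2 libraries cannot give less than 0.0667). Intervals cover counting error only.

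The label was checked against genes the rule did not use, and the 8 members of CSA libraries 1 and 2 went against it in part. Of them, 3 had at least 30 *Ttr* UMIs, with 28482, 487 and 380. In 2 others the fibroblast collagen-binding gene *Dcn* had 36 and 28 UMIs and *Ptgds*, the prostaglandin D synthase of the leptomeninges, had 1309 and 1068. The other 3, all in CSA library 2, had 14 to 32 UMIs of *Foxj1* (the master regulator of motile cilia), 51 to 76 of *Ccdc153* and 53 to 88 of *Tmem212*, which mark ependymal cells, with 0 to 2 UMIs of *Ttr*. These libraries had too few members to enter a test, and the account below is of the 111 members of CSA libraries 3 and 4 unless it says otherwise.

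All 111 of these cells had *Ttr*, with 35 UMIs in the lowest, 419 in the median and 4502 in the highest cell. In the same libraries *Ttr* had a UMI in 149 of 1271 cells (11.7%) of 4 other classes, namely fibroblasts, endothelial cells, microglia and T cells chosen in the same way by their own markers. Thinned to 1500 UMIs per cell, that share was at most 4.85% in any class and library, against 100% of the members. As a level, *Ttr* stood at 85254 CPM (UMIs of a gene scaled to the same total in every sum of cells) in CSA library 3 and 76841 in CSA library 4. The 16 sums of other classes over the 4 CSA libraries ranged from 6.28 to 47.3 CPM, with a median of 23.2. All 14 check genes were detected in the members of both libraries. Of them 12, all but *Igfbp2* and *Aqp1*, were higher than in each other class by the test described below, beside 17.7% of all genes. This count was 7 without CSA library 4 and 3 with DESeq2 in place of edgeR, which did not call genes such as *Kcne2*, *Htr2c* and *Sostdc1* that had 0 or 1 UMI in each other class.

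Markers of other cell types were low in these 2 libraries, with stated exceptions. The ependymal markers *Ccdc153* and *Tmem212*, and *Nnat*, *S100b* and *Aqp4*, were at 0 UMIs in the members of both. *Rarres2*, of the same check list, was at 3.62 CPM in CSA library 3 and 4.36 in CSA library 4. Of the other ependymal check genes, *Meig1*, *Mia* and *Ak7* were present, at 79.7, 43.5 and 32.6 CPM in CSA library 3 and 56.6, 70.8 and 27.2 in CSA library 4, and these 3 were higher than in each other class (2 without CSA library 4, 1 with DESeq2 and 1 with cells thinned to 1500 UMIs). Over all genes, 17.7% were higher than in each other class. Also at 0 were the fibroblast genes *Dcn*, *Col1a1*, *Col3a1* and *Lum*, the immune genes *Ptprc* (by rule), *Cd3e* and *Cd79a*, and the vascular genes *Pecam1* (by rule), *Cldn5*, *Rgs5* and *Kcnj8*. *Ptgds* was present at 942 and 999.8 CPM. The summed level of 10 immune genes was 18.1 and 83.9 CPM, led by *Lyz2* at 10.9 in CSA library 3 and *C1qa* at 25 in CSA library 4.

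Red blood cell RNA set CSA libraries 3 and 4 apart. Hemoglobin genes took 84.6% and 71.9% of all UMIs of these libraries, against 0.287% and 0.0908% in CSA libraries 1 and 2 and 0.496% and 0.520% in the BA libraries. Most of it lay in other barcodes: 4049 and 3193 barcodes of the 2 libraries had over 10% hemoglobin UMIs. Of the members, 6 of 111 did, and the median member had 0.307% in CSA library 3 and 0.213% in CSA library 4. The beta-globin gene *Hbb-bs* still summed to 43180 and 22377 CPM in the members. Leaving those 6 out gave 1035 genes higher than in each other class (defined below) in place of 1043.

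Depth differed between preparations. The 6 libraries held 8408685, 16998497, 55385796 and 56169736 UMIs (CSA 1 to 4) and 12041325 and 27511208 (BA 1 and 2). The median member had 6503.5 UMIs and 1789 genes in CSA library 3, 10361 UMIs and 2656 genes in CSA library 4, and 78286 UMIs and 7616 genes in BA library 1. No barcode was a member in more than 1 library, and 1 member's barcode also occurred as another cell in a second library. Scrublet, a caller of simulated doublets, marked 6 of the 111 members, and without them 1031 genes were higher than in each other class.

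The rule genes themselves had similar levels in the 2 CSA libraries. *Otx2* was at 275 and 268 CPM, *Folr1* at 330 and 347, *Clic6* at 435 and 428, *Kl* at 438 and 358, *Kcnj13* at 228 and 243, and *Prlr* at 188 and 151. In BA library 1 *Otx2* (318 CPM) and *Clic6* (590) were nearest to these, while *Folr1* stood at 1139, *Kl* at 1454, *Kcnj13* at 765 and *Prlr* at 1283. Of the 111 cells, 14 had exactly 3 of the markers, 31 had 4, 33 had 5 and 33 had all 6. Just inside the rule, the 14 cells with 3 markers had a median of 189.5 *Ttr* UMIs. Just outside it, 20 cells with 2 markers in CSA libraries 3 and 4 had a median of 64.5 *Ttr* UMIs.

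**Figure D1:**
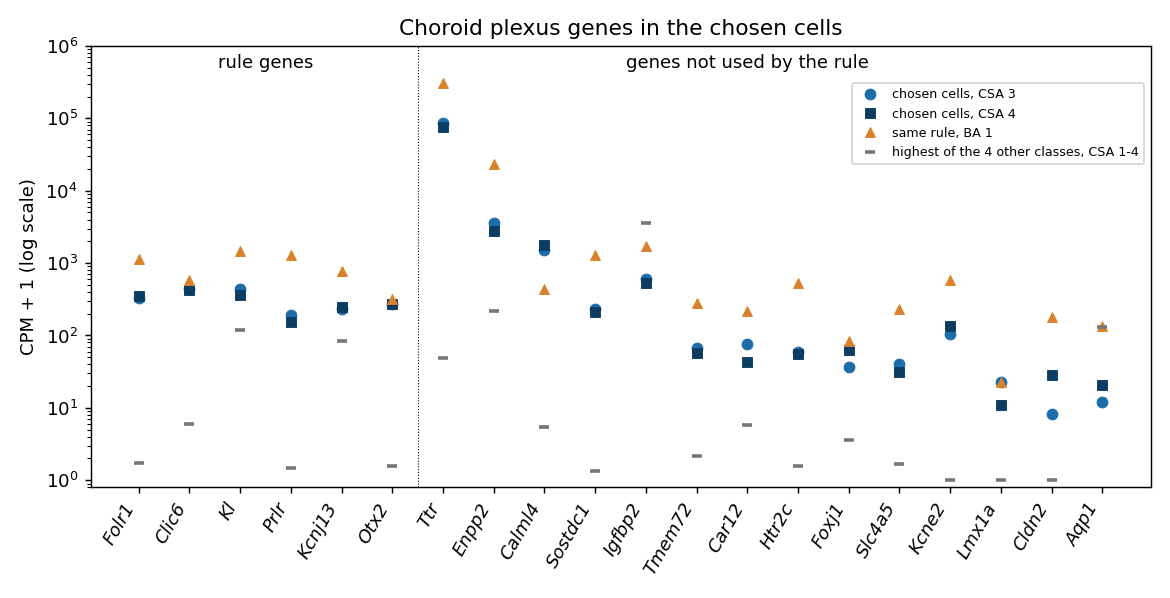
CPM + 1 on a log axis for the 6 rule genes and 14 check genes, in the chosen cells of CSA library 3 (circles), CSA library 4 (squares) and BA library 1 (triangles), with a grey dash for the highest of the 16 sums of other classes in the CSA libraries. *Ttr* lies highest at 85254, 76841 and 308853 CPM, and *Igfbp2* and *Aqp1* are the check genes whose dash lies above both CSA points.

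What distinguished these cells from the other cells of their libraries was tested on UMIs summed per library and class. edgeR's quasi-likelihood test was fitted over 18 sums of 5 classes with the library as a block, with members from CSA libraries 3 and 4, and adjusted by the Benjamini-Hochberg method over all genes tested. A gene was tested when over 10% of the cells of either class had it, and called at an adjusted p under 0.05 and a log2 fold change of at least 1.3. Since cells were chosen by marker transcripts, transcripts that accompany the markers differ between classes by construction, and an adjusted p says only that a difference exceeded the spread between sums. Against fibroblasts, 4490 of 8968 genes were called (50.1%), 1613 higher (18%) and 2877 lower (32.1%). Against endothelial cells, the other barrier cell of these libraries, 4368 of 8160 were called (53.5%), 1798 higher (22%) and 2570 lower (31.5%). Against microglia, 5013 of 8371 were called (59.9%), 2042 higher (24.4%) and 2971 lower (35.5%). Against T cells, 4168 of 7447 were called (56%), 2048 higher (27.5%) and 2120 lower (28.5%).

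Of 5886 genes detected in over 10% of the 111 cells, 1043 (17.7%) were higher than in each of the 4 other classes. In the lists below, genes that could be tested against each class are those among these 5886. That filter rests on the members alone and leaves out genes that are low in them, for the lists and for the 17.7% alike. With CSA library 4 left out, which leaves 30 members in a single library whose spread is taken from the other sums, 731 genes were called and 669 of the 1043 remained, and the calls against fibroblasts fell to 2674. With cells thinned to 1500 UMIs, 345 genes were higher in each class, 342 of them among the 1043, and 1541 were called against fibroblasts. BA library 1 did not enter the fit. There, 937 of the 1043 genes (89.8%) had a higher CPM in the 13 cells than in the fibroblasts, endothelial cells and T cells of that library, against 1151 of the 4843 (23.8%) other genes. No fold limit or test was applied, and microglia, with 2 cells, were left out. The 13 cells were chosen by the same markers, so this is a description and not a separate test.

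Secreted proteins held the most abundant transcript. Of 24 listed genes, 22 were detected widely enough to be tested against each class and 10 were higher than in all 4, beside 17.7% of all genes. Against fibroblasts 11 of 24 tested were higher and 6 lower, beside 18% and 32.1% of all genes. The median log2 fold change was 1.78, beside -0.39 for all genes. Against endothelial cells 17 of 23 were higher and 3 lower, beside 22% and 31.5% of all genes. The median there was 3.76 (3.53 with genes at 0 UMIs in a class set to a floor of 3 counts), beside -0.22. *Ttr* was higher in every contrast, with the smallest difference against microglia (log2 fold change 12.07 ± 0.46 SE, edgeR adjusted p = 3.3e-12).

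*Enpp2*, which encodes autotaxin, the enzyme that makes lysophosphatidic acid, stood at 3598 and 2730 CPM in CSA libraries 3 and 4, at 23379 in BA library 1, and at 0 to 214 in other classes (median 37.7). Its groups did not overlap, and it exceeded fibroblasts by 4.72 ± 0.50 on the log2 scale (adjusted p = 4.3e-07). *Sostdc1*, an antagonist of BMP and Wnt signaling, was at 232 and 208 CPM against at most 0.346 in any other sum, and *Col9a3*, a collagen chain, at 156 and 142 against at most 3. *F5*, coagulation factor V, was at 145 and 91.5 CPM against at most 6.69 and exceeded endothelial cells by 4.87 ± 0.67 (adjusted p = 5.6e-06).

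Other secreted proteins were shared with the leptomeninges or were low. *Igfbp2*, an insulin-like growth factor binding protein, was at 598 and 526.0 CPM and differed from fibroblasts by -0.97 ± 0.71 (adjusted p = 0.24), with up to 3633 CPM in the other classes. *Igf2* was at 18.1 and 17.4 CPM, beside 99.9 in BA library 1. *Apoe*, apolipoprotein E, was at 1149 and 1096 CPM and lower than in fibroblasts by 3.20 ± 0.76 (log2 fold change -3.20, adjusted p = 0.0015). *Cp*, ceruloplasmin, had no UMI in the members of either library.

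Of 22 listed genes of ion and water transport, 16 could be tested against each class and 10 were higher in all 4 contrasts, beside 17.7% of all genes, but 6 without CSA library 4 and 3 with DESeq2. Against fibroblasts 13 of 19 were higher and 3 lower (median 2.66, or 2.42 at the floor), beside 18% and 32.1% of all genes, and against endothelial cells 11 of 18 were higher and 1 lower (median 4.05, or 3.46 at the floor), beside 22% and 31.5%. *Kcne2*, a subunit that regulates potassium channels of the apical membrane, stood at 105 and 136 CPM and had no UMI in any sum of the 4 other classes, which makes it at least 21.2-fold higher than in each. This and the bounds below set the members against a floor of 3 counts per class in CSA libraries 3 and 4, where the fibroblasts are the smallest class. *Car2*, the cytosolic carbonic anhydrase that supplies bicarbonate, was at 1040 and 1102 CPM against 1.17 to 126, and exceeded endothelial cells by 3.12 ± 0.56 (adjusted p = 9.1e-05). *Trpm3*, a cation channel whose intron harbors a microRNA gene, was at 323 and 290 CPM against at most 12.

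Other transport genes had smaller differences or none detected. *Atp1b1*, the beta 1 subunit of the sodium-potassium pump, was at 279 and 188 CPM against at most 132 and exceeded fibroblasts by 2.18 ± 0.72 (adjusted p = 0.014). *Aqp1*, the water channel of the apical membrane, was at 10.9 and 19.6 CPM in the members, within the 0 to 129 of the other classes. In BA library 1 it was at 132 CPM. *Slc12a2*, the sodium-potassium-chloride cotransporter, was at 43.5 and 51.2 CPM beside 736 in BA library 1.

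Of 25 solute carriers and drug pumps, 16 were tested against endothelial cells, with 5 higher (2 without CSA library 4, 3 with DESeq2, 0 of 10 with cells thinned to 1500 UMIs) and 9 lower (median -2.26 beside -0.22 for all genes), and 22% of all genes were higher there and 31.5% lower. In all contrasts 4 of 11 were higher, beside 17.7% of all genes, and 1 each without CSA library 4 and with DESeq2. *Slc16a8*, a lactate transporter, was at 25.4 and 27.2 CPM and had no UMI elsewhere, at least 4.40-fold higher than in each class. *Slc29a4*, a monoamine transporter, was at 25.4 and 33.8 CPM against at most 4.61. The thyroid hormone transporter *Slco1c1* was at 72.5 and 83.9 CPM, above fibroblasts by 2.56 ± 0.69 (adjusted p = 0.004) and below endothelial cells (-2.37 ± 0.57, adjusted p = 0.0014).

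Among the transporters lower than in endothelial cells, *Slc2a1*, the glucose transporter GLUT1, was at 0 and 7.62 CPM against up to 1526 in the endothelial sums (-7.44 ± 0.47, adjusted p = 4.9e-10). *Abcg2*, a drug efflux pump, was also at 0 and 7.62 CPM (-6.91 ± 0.43, adjusted p = 4.7e-10). *Slc7a5*, the large neutral amino acid transporter, and *Abcb1a*, P-glycoprotein, had no UMI in the members. The 1352 endothelial UMIs of *Abcb1a* in CSA libraries 3 and 4 make it at least 419-fold lower. Summed over the 25 listed genes, the level was 391 and 433 CPM in the members and 5880 and 5538 in the endothelial cells. It was 2356 CPM in the 13 cells of BA library 1, so the low sum holds for the CSA members only.

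Of 17 junction and epithelial genes, 7 could be tested against each class, and 4 were higher, beside 17.7% of all genes, namely *Krt18*, *Krt8*, *Tjp3* and *Cldn2* (1 with DESeq2). Against endothelial cells 4 of 11 were higher and 6 lower, beside 22% and 31.5%. The keratins *Krt18* and *Krt8*, which pair into the filaments of simple epithelia, were at 402 and 438 and at 134 and 131 CPM, against at most 2.23 and 0 in the other classes. *Krt8* was at least 21.6-fold higher than in each. *Cldn2*, a claudin that forms a paracellular cation pore, was at 7.25 and 27.2 CPM with no UMI in the other classes (at least 3.71-fold), and at 181 CPM in BA library 1. *Tjp1*, which encodes ZO-1, was lower than in endothelial cells (21.7 and 13.1 CPM, -5.15 ± 0.44, adjusted p = 1.9e-08).

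Most motile cilia genes were higher. Of 18 genes, 14 could be tested and 12 were higher than in each class, beside 17.7% of all genes. The median log2 fold change was 7.01 against fibroblasts and 6.71 against endothelial cells, and 4.18 and 6.56 with genes at 0 UMIs set to their floor. Ciliary genes were higher whether members had under or at least 0.5% mt- UMIs, with 12 and 10 of the list called in all 4 contrasts, and without CSA library 4, and with DESeq2, 6 were called. *Calml4*, a calmodulin-like protein, was at 1493 and 1801 CPM against at most 4.46, and exceeded fibroblasts by 9.45 ± 0.52 (adjusted p = 2.2e-09). In the 13 cells of BA library 1 *Calml4* was lower, at 439 CPM. The list summed to 1118 CPM there, against 3044 and 3444 in the members of CSA libraries 3 and 4. *Rsph1*, a radial spoke head protein, was at 431 and 394 CPM against at most 7.74.

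*Dynlrb2*, a dynein light chain, was at 283 and 317 CPM against at most 2.58, and *Tekt1*, a protein inside ciliary microtubules, at 167 and 154 against at most 2.58. *Spag16*, a protein of the central pair of ciliary microtubules, was at 29.0 and 49.0 CPM and had no UMI elsewhere (at least 7.29-fold). *Tppp3* and *Rfx3* were the 2 tested members of the list not higher in each. *Dnah5*, a heavy chain of the outer dynein arm, had no UMI in the members.

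RFX factors act with FOXJ1 on ciliary genes through a short element, so the sequence before these genes is shown. A script searched the 250 bases upstream of each RefSeq start (GRCm38.p6) for the RFX recognition core GTTGCC and its other strand GGCAAC. The 3 ciliary genes called higher in each class whose stretch held it are printed, each as the 100 bases around it with the core in capitals. *Dynlrb2* lies on the plus strand (chr8:116504915-116505014), *Tekt1* on the minus strand (chr11:72361883-72361982) and *Spag16* on the plus strand (chr1:69826812-69826911).
Dynlrb2: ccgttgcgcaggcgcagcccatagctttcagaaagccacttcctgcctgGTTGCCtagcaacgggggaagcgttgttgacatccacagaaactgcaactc
Tekt1: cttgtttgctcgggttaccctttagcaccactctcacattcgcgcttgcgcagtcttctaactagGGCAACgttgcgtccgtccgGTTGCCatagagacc
Spag16: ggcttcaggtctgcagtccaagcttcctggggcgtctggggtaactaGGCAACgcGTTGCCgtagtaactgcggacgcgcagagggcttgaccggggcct

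The first core begins 51, 35 and 111 bases before the start. *Tekt1* and *Spag16* hold it a second time on the opposite strand. The core was in the stretch of 3 of 8 such ciliary genes with a promoter in the table (37.5%) and of 144 of 833 genes higher in each class (17.3%). It was also in 636 of 4710 genes detected in over 10% of the members (13.5%) and in 3195 of all 27025 (11.8%). A match to 6 letters is a description and not a binding site.

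Of 26 listed transcription factors of the dorsal midline, the hindbrain and cilia, 15 had a UMI in the members. Detection in over 10% of the members left 10 that could be tested, and 7 were higher than in each class, beside 17.7% of all genes. This count was 3 without CSA library 4 and 3 with DESeq2. With cells thinned to 1500 UMIs the count was 1, and with only members of at least 0.5% mt- UMIs it was 4. *Foxj1* stood at 36.2 and 62.1 CPM against at most 2.58. *Lmx1a*, a roof plate factor, was at 21.7 and 9.80 CPM and *Gmnc*, a regulator of multiciliated cells, at 18.1 and 25, both with no UMI elsewhere (at least 2.06-fold and 3.85-fold). *Msx1*, a homeobox factor, was at 330 and 415 CPM and exceeded fibroblasts by 2.45 ± 0.43 (adjusted p = 0.00018). The HOX genes listed, which mark the hindbrain choroid plexus, had no UMI in the members.

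For *Otx2*, whose level chose the cells, a stretch upstream of a RefSeq start (GRCm38.p6, chr14:48665260-48665359, minus strand) is shown because it holds TAATCC (on the other strand, GGATTA), the core recognised by homeodomains of the OTX kind, in capitals.
Otx2: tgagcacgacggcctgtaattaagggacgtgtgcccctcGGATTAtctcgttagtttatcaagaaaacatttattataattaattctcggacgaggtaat
The motif begins 211 bases before the start. These letters were in the stretch of 54 of 833 genes higher in each class (6.48%), against 300 of 4710 genes (6.37%) detected in over 10% of the members and 7.21% of all 27025.

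Of 19 receptors, 6 could be tested in each class and 1 was higher, near the 17.7% of all genes (and 0 with DESeq2). It was *Htr2c*, the serotonin receptor for which the choroid plexus is known, at 58.0 and 54.5 CPM against at most 0.576 and at 528 CPM in BA library 1. Against fibroblasts 9 of 13 tested receptors were lower and 1 higher, beside 32.1% and 18% of all genes, but 5 were lower without CSA library 4 and 4 of 14 with only members of at least 0.5% mt- UMIs. Against microglia 4 of 9 were higher and 4 lower, beside 24.4% and 35.5% of all genes, and against T cells 4 of 7 and 3, beside 27.5% and 28.5%. *Igf1r*, the receptor of insulin-like growth factor 1, was at 3.62 and 2.18 CPM against 20.6 to 431 in other classes, and at 122 in BA library 1. *Nr3c1*, the glucocorticoid receptor, was at 3.62 and 30.5 CPM (-2.89 ± 0.40 against fibroblasts, adjusted p = 9.9e-06).

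Of 32 growth factors and ligands, 27 were tested against fibroblasts, with 2 higher and 15 lower (median -2.70, or -2.69 at the floor), beside 18% and 32.1% of all genes. Against microglia 6 of 15 were higher and 5 lower, beside 24.4% and 35.5%, and against T cells 10 of 12 were higher and 1 lower, beside 27.5% and 28.5%. *Sema3b*, a repulsive guidance cue, stood at 21.7 and 12 CPM against at most 5.06, and its call as higher in each class was lost with DESeq2, with no detection filter and without CSA library 2, 3 or 4. With doublets or members over 10% hemoglobin left out, or with the cells of 2 markers in CSA libraries 3 and 4 added, it was in under 10% of the cells and was not tested. No gene of the list was higher in each class with only members under 0.5% mt- UMIs. The same held with cells thinned to 1500 UMIs and with at least 2 markers. *Wnt5a*, *Il34*, *Kitl* and *Angpt1* had no UMI in the members.

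Of 5 retinoid genes that could be tested in each class 2 were higher, and of 8 metal genes 3, beside 17.7% of all genes. *Rdh5*, a retinol dehydrogenase, was at 246 and 363 CPM against at most 63.0 and exceeded fibroblasts by 3.60 ± 0.39 (adjusted p = 5.6e-07). Of 13 retinoid genes 9 were tested against fibroblasts, with 2 higher and 4 lower, beside 18% and 32.1% of all genes, the latter including *Aldh1a1*, *Aldh1a2* and *Crabp2* with no UMI in the members. *Mt3*, a metallothionein that binds zinc and copper, was at 4178 and 5519 CPM against at most 95.1 and exceeded microglia by 9.31 ± 0.50 (adjusted p = 5.1e-11). The metal genes higher in each class were *Mt3* and the metalloreductases *Steap1* and *Steap2*, the last 2 not with DESeq2.

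Among genes with at least 50 UMIs, the 10 whose smallest fitted log2 fold change over the 4 contrasts was largest were *Ttr*, *Ppp1r1b*, *Smim22*, *Gm29538*, *2900040C04Rik*, *Prr32*, *Cox8b*, *Prcd*, *Drc7* and *Krt8*. *Smim22*, *Drc7* and *Krt8* had no UMI in the other classes, so only a bound on their fold is known. Their place in this order is therefore not fixed. *Ppp1r1b*, which encodes DARPP-32, an inhibitor of protein phosphatase 1 best known from striatal neurons, was at 562 and 683 CPM against at most 1.13. *Smim22*, a small membrane protein gene at chr16:5007288-5008309 (GRCm38, plus strand), was at 323 and 334 CPM and had no UMI in the other classes, at least 54.5-fold higher than in each, and was at 187 CPM in BA library 1. *Drc7*, a subunit of the regulator of ciliary dynein, was at 156 and 122 CPM with none elsewhere (at least 21.3-fold).

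At the other end, *Ptn*, the growth factor pleiotrophin, had no UMI in the members against 4822 in the fibroblasts and 4001 in the endothelial cells of the same 2 libraries, at least 3896-fold and 1239.5-fold lower. *Rgs5*, which marks pericytes, and *Coch*, of leptomeningeal fibroblasts, were likewise at 0, at least 1252-fold and 379.7-fold lower than in fibroblasts. The cells chosen as fibroblasts held *Rgs5* at up to 4284 CPM, so that class was not free of pericyte RNA. *Ly6c1*, an endothelial surface protein, had 2751 UMIs in the endothelial cells of these libraries and none in the members (at least 852-fold lower).

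**Figure D2:**
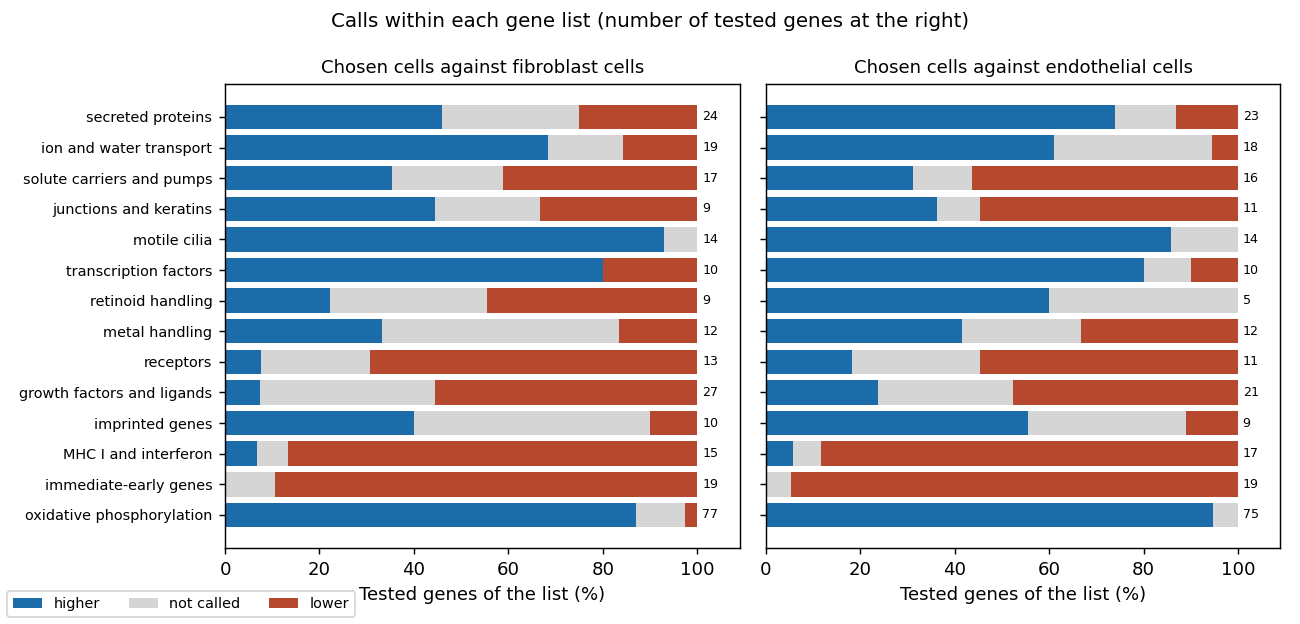
Share of the tested genes of each list (x axis, %) that were called higher (blue), not called (grey) or called lower (red) in the chosen cells against fibroblasts (left) and endothelial cells (right), with the number of tested genes at the right of each bar. Motile cilia and oxidative phosphorylation genes are mostly blue, while immediate-early and MHC class I and interferon genes are mostly red.

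Immediate-early genes, which are induced within minutes of a stimulus and also during tissue dissociation, were low. Of 19 genes, 17 were lower than in fibroblasts (median -4.64, or -4.54 at the floor) and 18 lower than in endothelial cells (median -5.72, or -5.29 at the floor), beside 32.1% and 31.5% of all genes, and none was higher. Their summed level was 467 and 427 CPM in the members, 1766 and 5177 in fibroblasts of CSA libraries 3 and 4, and 2625 in the 13 cells of BA library 1. *Junb* was at 3.62 and 5.45 CPM against 333 to 3078 in the other classes (-6.40 ± 0.39 against fibroblasts, adjusted p = 1e-09). *Fos* had 0 and 1.09 CPM against 22.2 to 3281, and 258 in BA library 1. *Jund* at 319 and 329 CPM did not differ detectably from endothelial cells (0.06 ± 0.34, adjusted p = 0.89).

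MHC class I and interferon genes were also lower. Of 17, 13 of 15 tested were lower than in fibroblasts (median -2.31), but 8 without CSA library 4 and 7 with only members of at least 0.5% mt- UMIs, and 15 of 17 lower than in endothelial cells (median -4.88), beside 32.1% and 31.5% of all genes. *B2m*, the light chain of every MHC class I molecule, was at 21.7 and 21.8 CPM against 270 to 3159 (-3.55 ± 0.25 against fibroblasts, adjusted p = 4.3e-09), and at 74.9 CPM in BA library 1, where other classes reached 3362. *H2-K1*, a heavy chain, was at 3.62 and 18.5 CPM (-3.34 ± 0.38, adjusted p = 1e-06). *Ifi27*, an interferon-induced mitochondrial protein, was the exception, at 1348 and 1411 CPM against 105 to 317, higher in each class (2.51 ± 0.21 against fibroblasts, adjusted p = 2.7e-08).

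Nuclear-encoded subunits of oxidative phosphorylation, a list taken by gene symbol after the values were seen, were mostly higher. Of 81 genes, 75 could be tested and 65 were higher in each class, beside 17.7% of all genes. Against fibroblasts 67 of 77 were higher and 2 lower (median 2.52), beside 18% and 32.1% of all genes. *Atp5g1*, a subunit of the ATP synthase ring, was at 4265 and 4840 CPM against 107 to 258 (3.97 ± 0.22 against T cells, adjusted p = 1.1e-10), and *Cox8a*, a subunit of cytochrome c oxidase, at 5968 and 6728 against 361 to 1438. These subunits together took 12% and 12.49% of a median member's UMIs in CSA libraries 3 and 4, against 1.13% to 2.13% in the other classes and 4.83% in the 13 cells of BA library 1.

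RNA encoded by the mitochondrial genome itself went the other way. The median member had 0.0114% of its UMIs on the 13 mt- genes in CSA library 3 and 0.0436% in CSA library 4, while the medians of the other classes there lay between 2.41% and 5.43% and that of the BA library 1 cells was 6.90%. Of the 111 members, 38 had no mt- UMI at all and 78 had under 0.5%. Among all kept cells, 73 of 1103 (6.62%) in CSA library 3 and 168 of 2241 (7.50%) in CSA library 4 were under 0.5%, of which 18 and 60 were members and 25 and 31 had over 10% hemoglobin UMIs.

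RNAs kept in the nucleus were low in the same cells. *Malat1*, an abundant nuclear long non-coding RNA, had a UMI in 30 of 111 members (27.0%, 95% exact interval 19 to 36.3) and in 1238 of 1271 cells of the other classes (97.4%), although the median members, at 6503.5 and 10361 UMIs, were deeper than the median cells of those classes (3919 to 6323). Its level was 170 and 79.5 CPM against 16451 to 76579 (-8.71 ± 0.41 against fibroblasts, adjusted p = 3.4e-11), and 1326 CPM in BA library 1. *Neat1* had a UMI in 3 members and in 522 of 1271 other cells (41.1%). *Xist*, which coats the inactive X chromosome of females, was found in 0 of 111 members, which allows a share of cells with a UMI of up to 2.70% and does not limit the share that express it, and in 502 of 1271 other cells (39.5%). Of the 111 members, 36 had a UMI of the Y-linked gene *Ddx3y*, as did 196 of the 1271 other cells (15.4%). Thinned to 1500 UMIs, the shares were 4.94% to 13.3% in the members and 2.43% to 9.43% in the other classes, and the levels overlapped (25.4 to 67.5 CPM against 22.2 to 69.1). The sex of the single cells was not given, so sex and loss of nuclear RNA cannot be told apart for *Xist*.

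**Figure D3:**
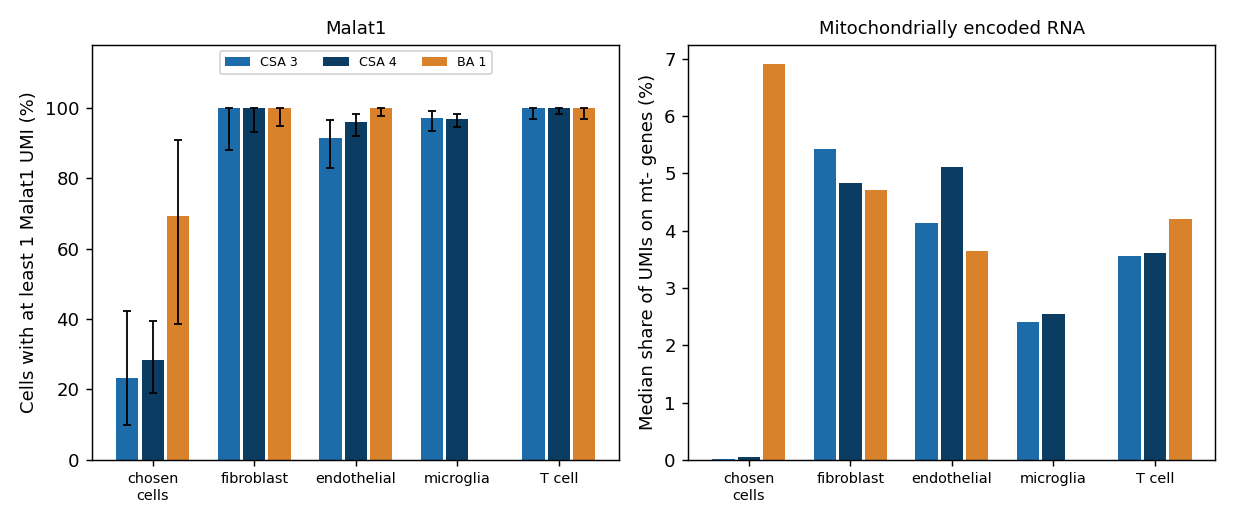
Left, share of cells with at least 1 *Malat1* UMI (%) with 95% exact binomial intervals. Right, median share of UMIs on mt- genes (%), for the chosen cells and 4 other classes in CSA library 3, CSA library 4 and BA library 1 (microglia of BA library 1, with 2 cells, are not drawn). The chosen cells of CSA libraries 3 and 4 stand lowest in both, with 27.0% of 111 cells on the left and 0.0114% and 0.0436% on the right.

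The shares formed a range, and 0.5% is a limit set within it for description, with 9 cells between 0.25% and 1%. The summed *Ttr* level was 22858 CPM in the 38 cells with no mt- UMI, 43541 in the 20 cells up to 0.05%, 91062 in the 20 from there to 0.5%, 159619 in the 19 from 0.5% to 5% and 214216 in the 14 above 5%. The level was higher in each bin than in the one before. On either side of 0.5%, it took a median of 2.43% of the UMIs of the 78 cells under 0.5% mt- (0.731 to 25.7) and 21.6% of the 33 others (2.85 to 34.4). As summed levels, *Ttr* was at 26988 and 57532 CPM in the former and 170084 and 183967 in the latter, and *Enpp2* at 789 and 1482 against 7689 and 9655. The rule genes *Clic6* (428 and 428 against 445 and 428 CPM) and *Otx2* (312 and 274 against 222 and 235) were closer between the sets than the other 4 rule genes. *Folr1* was at 122 and 251 against 632 and 884 CPM, *Kcnj13* at 104 and 180 against 409 and 592, *Prlr* at 79.5 and 99.0 against 347 and 442, and *Kl* at 300 and 307 against 641 and 642. *Calml4* was higher in the former (1919 and 1913 against 872 and 1184). The median share of oxidative phosphorylation subunits was 14.0% and 13.5% in the former and 7.72% and 8.56% in the latter, and *Malat1* was at 6.11 and 14.1 CPM against 409 and 442. The former had medians of 8396 and 12536 UMIs and the latter 5500.5 and 4896.

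The calls were therefore repeated on each set. With only the 78 cells, 975 genes were higher in each class and 941 of the 1043 (90.2%) remained. With only the 33 others, 538 were called, of which 508 were among the 1043, and 2663 genes were called against fibroblasts. All 6 members marked by Scrublet were among these 33 (5 of the 12 in CSA library 3), and their part in the difference was not tested. In these 33 cells, 13 of the secreted and 47 of the oxidative phosphorylation genes were higher in each class, against 8 and 63 in the 78 cells (of 24 and 81 listed), while over all genes 538 of 4497 and 975 of 6415 tested were. In the same order 14 and 17 of 19 tested immediate-early genes were lower than in fibroblasts. Over all genes 1845 of 8620 and 3067 of 9200 were. *Malat1*, *Neat1* and the other tested nuclear RNAs were lower than in fibroblasts in both sets (5 of 5 tested, *Xist* among them). The part of mt- RNA content, dissociation and depth in these differences was not tested.

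**Figure D4:**
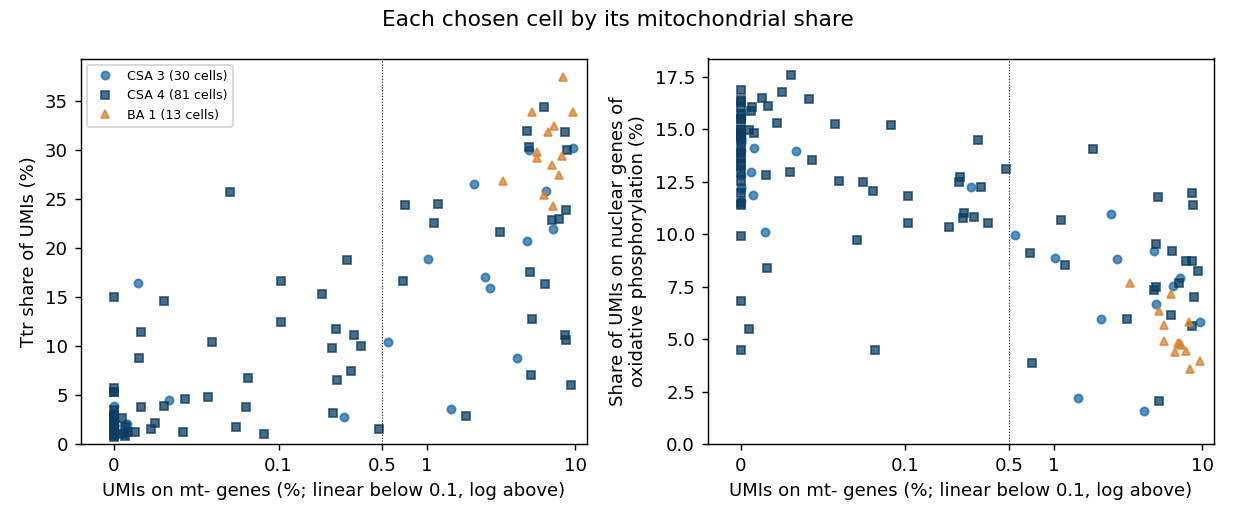
Each point is a chosen cell of CSA library 3 (circles), CSA library 4 (squares) or BA library 1 (triangles), by the share of its UMIs on mt- genes (x axis, %, linear below 0.1 and log above, dotted line at 0.5%), against the share on *Ttr* (left, %) and on nuclear genes of oxidative phosphorylation (right, %). Cells left of the line have a median *Ttr* share of 2.43% and those right of it in the CSA libraries 21.6%, while the 13 cells of BA library 1 lie between 24.3% and 37.5%.

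The 13 cells of BA library 1 all had at least 0.5% mt- UMIs. Their *Ttr* share was 24.3% in the lowest, 29.3% in the median and 37.5% in the highest cell, and their *Malat1* was detected in 9 of 13. Levels of CSA and BA members were not compared by a test here, since BA library 2 held 3 cells, 1 of them with over 30 *Ttr* UMIs. All 3 were marked as doublets by Scrublet. In BA library 1, free or mixed *Ttr* was also wider, with up to 130 CPM in the other classes. Side by side, the lowest quartile of genes by the ratio of CSA to BA members (a median log2 ratio of -0.98) had a median summed exon length of 4018 bases and the highest quartile (1.296) one of 1575.5 bases. A difference in gene length between preparations therefore went with the comparison of levels, and its part was not tested.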

How the data were processed

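The deposited files are 10x count matrices. The authors aligned reads to mm10 and counted UMIs per gene and barcode with Cell Ranger (version 3 per the submitters' processing notes, 6.1.2 per the matrix headers), and all 6 matrices were read as raw counts of 31053 genes. The 5 classes were chosen by fixed markers (3 of 6 for the choroid plexus and T cells, 4 of 6 for the others) without clustering, and doublets were not removed, which is an alternative below. UMIs were summed per class and library with at least 10 cells and fitted with edgeR 4.0.16 in R 4.3.3 (TMM normalization, glmQLFit and glmQLFTest, class and library as terms, 10 residual degrees of freedom). The 31 class markers were not tested. DESeq2 1.42.0, upper-quartile scaling, other filters, markers and depths, and leaving out each library were alternatives. Shares of cells were compared by exact permutation over libraries (SciPy 1.17.1), and doublets were called with Scrublet in scanpy 1.11.5. On simulated counts of the fibroblast comparison (8968 genes tested), 171 of 186 tested changed genes were recovered and 9 unchanged genes were called. All classes there had the same mean profile, a common dispersion and no library effect beside depth. The 200 changed genes were picked among those with larger expected counts and shifted 4-fold. The real classes differ far more widely, so these rates do not carry over to the calls above.

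The members and gene lists were chosen with earlier results of these data known. Genes were named by a rule: the markers, the 10 highest levels (leaving out mt-, ribosomal and hemoglobin genes), the 10 largest changes, the highest members of each list, and the 5 lowest against fibroblasts and endothelial cells. Further list genes were named for their roles after their values were seen. The lists of nuclear RNAs and of oxidative phosphorylation subunits, and the alternatives on mt- share, hemoglobin and 2 markers in CSA libraries 3 and 4, were added after the values were seen. UMIs tag molecules, so levels were not divided by gene length. Upstream sequences are from RefSeq (GRCm38.p6) and gene positions from GENCODE vM21. The library is the block because every class of a library came from the same pool. Replicates are libraries of pooled mice. With the library as a block, p-values of the fit use the spread that remains between sums of all 5 classes. Members entered from CSA libraries 3 and 4 only, so most of that spread comes from the other classes. Results for some genes are not reported here.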

Additional observations from a re-analysis of the deposited data

Results flagged for a closer look

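The median UMI count of the members was 60241.5 in CSA library 1, far above the 6503.5 to 13150.5 of the other CSA libraries, and rests on 2 cells. Among the other classes, the median share of oxidative phosphorylation UMIs in endothelial cells was 1.69% in CSA library 1, apart from 2.00% to 2.06% in the other CSA libraries, and the median mt- share of T cells was 4.18% in CSA library 2, above the 3.49% to 3.61% of the other CSA libraries. Chance flags about 1 in 20 groups in this way. Cells meeting the marker rule also made up 1.35% of the kept cells of BA library 1, a preparation of dura and skull that did not enter the fits.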

How the results depend on the processing

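Of 76 values of the counts and shares under all alternatives, 68 stayed the same. Counts had to stay within 1.5 times the reported count, and shares to keep the sign of the difference between CSA and BA libraries. Against fibroblasts (4490 genes) the count was 1703 with at least 2 markers, 1541 with cells thinned to 1500 UMIs and 2663 with members of at least 0.5% mt- UMIs. Against endothelial cells (4368) it was 1796 after thinning. The genes higher in each class (1043) numbered 595 with at least 2 markers, 345 after thinning (342 of them among the 1043) and 538 with members of at least 0.5% mt- UMIs. The cause was not tested beyond the fewer UMIs that thinning leaves. Leaving out each library gave 2674 to 4399 genes against fibroblasts, 3214 to 4327 against endothelial cells and 731 to 1130 higher in each class, the lowest in all 3 without CSA library 4. With CSA library 3 or 4 left out, the members' remaining library is assumed to vary like the other sums. Without the replicate block for library, 4603, 4354 and 1020 genes were called (948 of the 1043). The block pairs classes of the same library. DESeq2 called 4136, 4131 and 993 genes (825 of the 1043), and upper-quartile scaling raised the median log2 fold change of all genes by 0.26 against fibroblasts and 0.28 against endothelial cells. The difference in share between CSA and BA libraries was 0.421 to 1.65 points with a library left out (p = 0.3 to 1, exact permutation) and 2.99 with at least 2 markers (p = 0.0667, the smallest possible). Of the 89 cells added at 2 markers 69 were in CSA libraries 1 and 2, 2 of them with over 30 *Ttr* UMIs, and their sums entered the fit. With members from CSA libraries 3 and 4 alone, an alternative added after the data were seen, at least 2 markers gave 4261, 4231 and 1174 genes (1022 of the 1043). For the named genes that were higher in each class, 988 values under the alternatives kept that call, 68 did not, and 0 changed direction. Alternatives in which a gene left the fit are not counted, nor are named genes that were lower or not called. Depth limits all of this to transcripts found in over 10% of cells, and 111 members of 2 libraries carry the tests.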

Other observations

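Of 14 listed imprinted genes, which are expressed from one parental copy, 10 were tested against fibroblasts, with 4 higher and 1 lower, beside 18% and 32.1% of all genes, and 3 of 8 were higher than in each class (2 without CSA library 4, 1 with cells thinned to 1500 UMIs), beside 17.7%. *Cdkn1c*, an inhibitor of cyclin-dependent kinases, was at 699 and 690 CPM in CSA libraries 3 and 4 against at most 333 in the other classes and 252 in BA library 1 (log2 fold change 1.76 ± 0.28 SE against fibroblasts, edgeR adjusted p = 3.7e-05). *Snrpn*, a spliceosomal protein, was at 239 and 285 CPM (4.93 ± 0.42 against endothelial cells, adjusted p = 1.8e-08). *Gnas*, the stimulatory G protein subunit, was at 2076 and 2383 CPM.

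The most abundant transcripts beside those described were *Fth1*, the ferritin heavy chain, at 7555 and 8135 CPM against 1473 to 6792, and *Ppia*, cyclophilin A, at 6878 and 6986 against 982 to 2705. *Chchd10*, a small protein of the mitochondrial intermembrane space, was at 5055 and 5389 CPM against 5.19 to 119 (6.70 ± 0.43 against fibroblasts, edgeR adjusted p = 1.6e-09). *Dbi*, which binds acyl-CoA, was at 4421 and 5195 CPM against 80.4 to 287.

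Genes higher in each class had a median summed exon length of 1827 bases and all genes detected in over 10% of the members one of 2819.5. Of the latter, the 636 that were lower than in fibroblasts had a median of 4275. Between the 2 member libraries the median log2 ratio of CSA library 4 to CSA library 3 was 0.08, and 639 of 5886 genes (10.9%) differed by more than 1.

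The Y-linked gene *Ddx3y* had a UMI in 71 of 434 cells of the 5 classes in CSA library 3 and 161 of 948 in CSA library 4, and in 0 of 284 cells of CSA library 1, 600 of CSA library 2, 357 of BA library 1 and 1102 of BA library 2.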
